A study of Mus musculus with 6 samples.

Results

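The mammalian cell cycle genes examined here were 38 genes chosen by name for their textbook roles in entry into the cycle, DNA replication and mitosis. All 38 symbols were found among the 55450 genes of the count table, and 36 of them were among the 14539 genes with enough counts to be tested. The 2 that were not tested, Plk1 and Bub1, are described by their levels. Liver RNA came from 6 mice of the strain labelled C57BL/J, with 1 library per mouse. The 3 knockout (KO) mice were LKB1 fl/fl, with both copies of the gene for the kinase LKB1 (symbol Stk11) flanked by recombination sites, and the 3 wild-type (WT) mice carried normal copies. Mice of both groups were given adeno-associated virus serotype 8 carrying the recombinase Cre at 6 weeks of age, and the left liver lobe was taken 4 weeks later. The promoter driving Cre and the sex of the mice were not given in the sources used here. The comparison asks how the loss of LKB1 in liver bears on the expression of these genes.

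A cell that enters the cycle passes from G1 into S phase when D-type and E-type cyclins, with their kinases, release E2F factors, which turn on the genes for replication. Mitotic genes are turned on later, in G2, through B-Myb and FoxM1 at promoters that carry a short element called the cell cycle genes homology region (CHR), at which the DREAM complex holds them off in resting cells. Hepatocytes of the adult liver are mostly resting and often polyploid, and they can re-enter the cycle after loss of tissue. In RNA from whole liver, a change in the number of cycling cells and a change in RNA per cell cannot be told apart.

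The promoter sequences of a few members are shown because the replication and mitotic members differ in their promoter motifs. Whether these motifs bear on the levels in these livers was not tested. Windows from 250 bases before to 50 bases after the gene's start were taken from RefSeq on GRCm38.p6 and were found for 29 of the 38 members. The stretches printed hold 150 bases of the gene's own strand, 5′ to 3′, upstream of annotated exons. Capitals mark matches on either strand to the CHR (TTTGAA), to the CCAAT box (CCAAT), or to 4 E2F words (TTTCCCGC, TTTCGCGC, TTTGCCGC, TTTGGCGC). Mki67 (chr7:135716380-135716529, minus strand), Top2a (chr11:99024190-99024339, minus strand) and Kif11 (chr19:37376232-37376381, plus strand) are examples of mitotic members, each with a CHR in the stretch printed. Other mitotic members have none there.

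Mki67: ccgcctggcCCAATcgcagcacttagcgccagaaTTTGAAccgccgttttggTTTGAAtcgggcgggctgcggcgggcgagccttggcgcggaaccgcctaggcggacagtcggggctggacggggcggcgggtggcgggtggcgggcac

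Top2a: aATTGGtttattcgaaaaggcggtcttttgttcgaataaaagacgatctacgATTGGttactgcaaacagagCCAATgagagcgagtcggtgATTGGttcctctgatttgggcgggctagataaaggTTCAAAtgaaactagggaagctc

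Kif11: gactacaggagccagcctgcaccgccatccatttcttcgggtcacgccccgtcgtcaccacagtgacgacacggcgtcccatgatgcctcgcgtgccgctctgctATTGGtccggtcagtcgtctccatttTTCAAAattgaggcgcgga

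Mcm6 (chr1:128359706-128359855, minus strand), Mcm5 (chr8:75109359-75109508, plus strand) and Rrm1 (chr7:102441545-102441694, plus strand) represent the replication members. In Mcm6 the longest run of capitals holds 2 overlapping E2F matches, 1 on each strand.

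Mcm6: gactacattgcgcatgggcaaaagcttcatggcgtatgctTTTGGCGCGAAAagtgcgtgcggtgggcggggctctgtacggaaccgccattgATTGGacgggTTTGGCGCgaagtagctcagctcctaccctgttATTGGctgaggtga

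Mcm5: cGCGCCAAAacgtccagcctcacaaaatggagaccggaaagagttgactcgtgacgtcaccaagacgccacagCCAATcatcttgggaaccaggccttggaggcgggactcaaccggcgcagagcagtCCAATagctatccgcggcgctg

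Rrm1: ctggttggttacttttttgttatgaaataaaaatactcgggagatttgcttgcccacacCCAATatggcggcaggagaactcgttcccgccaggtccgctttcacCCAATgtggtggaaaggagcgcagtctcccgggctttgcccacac

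E2f8 (chr7:48881597-48881746, minus strand) is shown because it had the lowest log2 fold change among the members tested.

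E2f8: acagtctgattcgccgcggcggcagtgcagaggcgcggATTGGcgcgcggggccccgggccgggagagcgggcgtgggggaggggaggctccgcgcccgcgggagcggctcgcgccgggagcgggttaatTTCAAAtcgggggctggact

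The CHR was found in 12 of the 16 windows of G2/M, spindle and chromatin members (75.0%), in 1 of the 10 windows of replication members, and in 18.1% of the 27025 windows in the table. An E2F word was found in 5 of the 10 replication windows, in 1 of the 16 mitotic windows (6.25%) and in 2.32% of all windows. CCAAT boxes were common in both sets, with 8 and 14 windows holding one, against 37.9% of all windows. In Cenpf, Bub1b, Aurka, Plk1 and Anln the CHR was found only after the gene's start, as was the E2F word in Mcm3 and Cdt1. For a gene with more than 1 start the first listed was used, and the other start of Mcm7 had no E2F word. A match describes the letters of the window and is not a measured binding site.

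**Figure D1:**
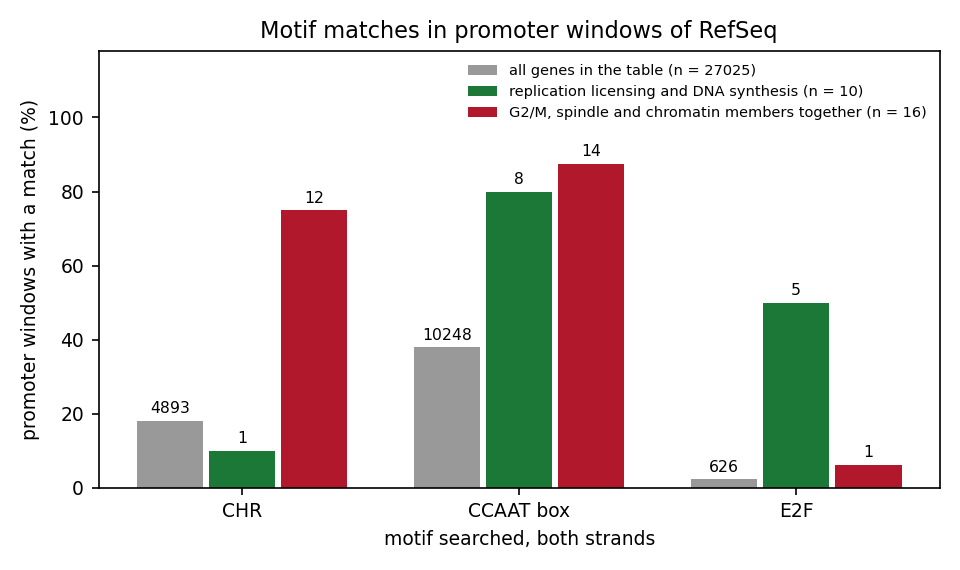
Share of RefSeq promoter windows that hold each motif on either strand, in percent, for all genes, replication members and G2/M, spindle and chromatin members, with the number of windows above each bar. The CHR bar is tall in the mitotic set (75.0%) and the E2F bar in the replication set (50.0%).

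Library totals lay between 47659122 and 56147667 counts, and 3 counts corresponded to 0.0515 to 0.0641 CPM (counts scaled to a common library size after TMM, a normalization for composition). Stk11 itself was at 22.1, 14.4 and 11.4 CPM in KO 1, 2 and 3 and at 66.1, 64.2 and 69.7 CPM in WT 1, 2 and 3. Its log2 fold change was -2.06 ± 0.247 (SE), with an edgeR adjusted p of 0.0167, and the adjusted p rose to 0.0636, 0.0607, 0.102 and 0.104 without KO 2, KO 3, WT 2 or WT 3. KO 1 and WT 1 stood apart from the rest: they held 42472 and 29243 counts of Xist, the RNA of the inactive X chromosome, and 6 and 3 counts of 4 Y-linked genes. The other 4 libraries had at most 16 counts of Xist and 6146 to 8199 of the Y-linked genes. The labels do not mention this difference, so the counts for each set of members are given over all 6 libraries and within the 4 libraries with Y-linked counts (KO 2 and 3 against WT 2 and 3), and single genes over all 6 and, for those described in most detail, also within the 4. The 4-library comparison and the use of this difference were chosen after these counts were seen. Xist state is represented by 1 mouse per genotype, so its effect and that of the single mouse cannot be told apart.

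All 12 replication genes had positive log2 fold changes, of which 1 passed the test, and the 21 mitotic genes were far higher in KO 1 than in any other library. Of the 36 tested, 32 had a positive and 4 a negative log2 fold change, with a median of 1.14 against 0.01 over all genes. Only Rrm1 passed the threshold of an adjusted p under 0.05, which is 2.78% of the members tested, against 3.37% of all genes called in either direction and 2.15% called higher and 1.22% lower. At an unadjusted p under 0.05 there were 10 members (27.8%), close to the 26.25% of all genes. KO 1 was the highest of the 6 libraries for 31 of the 38 members. Among the 36 tested this was 29 (80.6%), against 14.4% of all genes. Relative to the WT mean on a log2 scale, the median member stood at 2.08 in KO 1, -0.34 in KO 2 and -0.19 in KO 3, and at 0.16, -0.15 and -0.04 in WT 1, 2 and 3.

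**Figure D2:**
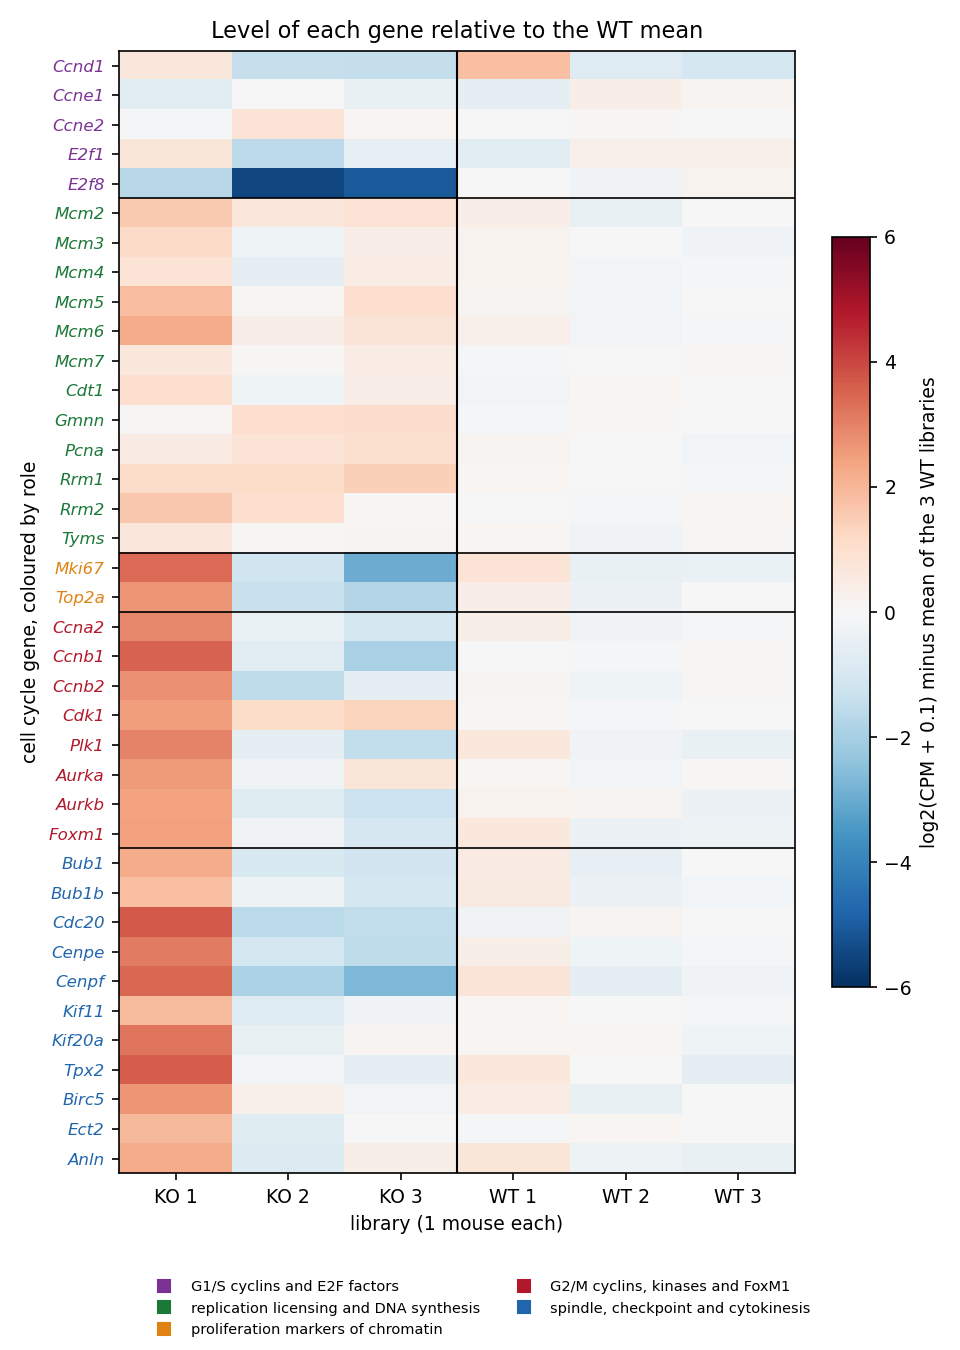
Level of the 38 genes in the 6 libraries as log2(CPM + 0.1) minus the mean of the 3 WT libraries, with genes as lines ordered and coloured by role. KO 1 is high for all G2/M, spindle and chromatin genes, KO 2 and KO 3 are mostly low for them, and E2f8 is lowest in KO 2 and KO 3.

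Among the 5 G1/S members, which are the cyclins of G1 and the E2F factors, 1 had a positive and 4 a negative fold change. None passed the threshold and 1 had an unadjusted p under 0.05 (20.0%, against 26.25% of all genes). E2f8, an atypical E2F that represses other E2F targets and is needed for hepatocyte polyploidy, was at 6.58, 5.79 and 7.61 CPM in WT and at 2.02, 0.054 and 0.106 CPM in KO 1, 2 and 3. The KO libraries were all below the WT libraries, and KO 2 and KO 3 held only 3 and 5 counts against 300 and 356 in WT 2 and WT 3. Group means were 0.728 ± 1.12 and 6.66 ± 0.916 CPM (SD, n = 3 each). The log2 fold change over all 6 libraries was -3.17 ± 1.11 (SE), which did not pass the threshold (adjusted p = 0.136). Within the 4 libraries with Y-linked counts it fell by 6.38 on the log2 scale (SE 0.375, adjusted p = 0.000582). The transcription unit, chr7:48866429-48881596 on the minus strand, overlaps another annotated gene, and use of strand in counting is not stated.

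Ccnd1, cyclin D1, the cyclin that couples growth signals to G1 kinases, was at 109.7, 18.7 and 15.4 CPM in WT 1, 2 and 3 and at 50.0, 12.1 and 11.7 CPM in KO 1, 2 and 3. Its 2 highest values were the 2 libraries with Xist counts, and the groups overlapped. The difference over 6 libraries was -0.96 ± 0.907 (SE, log2, adjusted p = 0.532), and within the 4 libraries it fell by 0.53 (SE 0.137, adjusted p = 0.0347). E2f1, an activating E2F, was at 3.76, 0.666 and 1.53 CPM in KO and at 1.40, 2.74 and 2.74 CPM in WT. KO 1 was its highest library and KO 2 its lowest, and the log2 fold change was -0.21 ± 0.613 over 6 libraries (adjusted p = 0.856) and -1.33 ± 0.409 within the 4 (adjusted p = 0.0546). The E-type cyclins start S phase. Ccne1 was at 0.292, 0.504 and 0.361 CPM in KO and at 0.315, 0.733 and 0.599 CPM in WT, with overlapping groups (log2 fold change -0.51 ± 0.436, adjusted p = 0.493), and Ccne2 stayed at or below 1.24 CPM in every library (0.39, adjusted p = 0.524).

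The 12 members for licensing and DNA synthesis all had positive fold changes, with a median of 0.77. Of the 12, 1 passed the threshold (8.33%, against 3.37% of all genes). At an unadjusted p under 0.05 there were 8 (66.7%, against 26.25% of all genes). In 5 of the 12 (41.7%) every KO library was above every WT library, against 16.9% of all genes tested. Over all 36 members tested this held for 6 (16.7%), near the share of all genes. The summed level of the 12 was 154, 116 and 138 CPM in KO 1, 2 and 3. In WT 1, 2 and 3 it was 83.7, 75.3 and 75.0 CPM, so the groups did not overlap. The sum rests most on abundant genes, with KO and WT means of 38.5 and 22.6 CPM for Pcna and 23.2 and 9.90 CPM for Rrm1. The order of the libraries differed between genes, and in Mcm3, Mcm4 and Cdt1, KO 2 lay below every WT library. Within the 4 libraries all 12 again had positive fold changes, with a median of 0.66, and 5 of the 12 rose, against 17.2% of all genes called higher there. Over all 36 members, of which 35 could be tested there, 6 rose (17.1%) and 5 fell (14.3%), near the 17.2% and 16.1% of all genes and the 33.3% called in either direction. Leaving out 1 of the 4 libraries leaves 1 mouse in a group, so such fits cannot show whether a call holds. In each of them all 11 members called kept the sign of their fold change.

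Rrm1, the large subunit of ribonucleotide reductase, which makes deoxynucleotides, rose from 10.7, 9.64 and 9.36 CPM in WT to 21.5, 21.3 and 26.8 CPM in KO. The lowest KO library held about 2 times the highest WT library. The means were 9.90 ± 0.696 and 23.2 ± 3.15 CPM (SD, n = 3 each), and the log2 fold change was 1.23 ± 0.141 (SE, adjusted p = 0.0147). The call was lost without KO 3 (adjusted p = 0.0607), WT 2 (0.109) or WT 3 (0.104), with fold changes of 1.11 to 1.29 over all leave-outs. Rrm1 also rose within the 4 libraries, by 1.33 (SE 0.147, adjusted p = 0.00297), and KO 1 was 2.01 times WT 1. The gene lies at chr7:102441695-102469771 on the plus strand and overlaps another annotated gene. Rrm2, the small subunit of the same enzyme, was at 10.7, 6.91 and 3.65 CPM in KO and 3.41, 3.18 and 3.74 CPM in WT, so KO 3 lay within the WT range (log2 fold change 1.04 ± 0.371, adjusted p = 0.140).

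Pcna, the sliding clamp of the replication fork, was at 32.2, 39.2 and 44.0 CPM in KO and at 25.1, 22.9 and 19.8 CPM in WT, with no overlap. Its log2 fold change was 0.77 ± 0.158 and missed the threshold (adjusted p = 0.052). Pcna rose within the 4 libraries by 0.96 (SE 0.123, adjusted p = 0.00474). Gmnn, geminin, which blocks re-licensing of origins after S phase, was at 4.89, 9.54 and 9.81 CPM in KO and at 4.51, 4.86 and 4.70 CPM in WT. Here KO 1 was close to the WT libraries while KO 2 and KO 3 were about 2 times as high, the opposite order to that of most members. Over 6 libraries the difference was 0.78 ± 0.276 (adjusted p = 0.138), and within the 4 libraries it was 1.01 (SE 0.136, adjusted p = 0.00523).

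The 6 Mcm genes encode the subunits of the replicative helicase. Mcm6 was at 19.8, 5.65 and 7.22 CPM in KO and at 5.13, 3.68 and 3.91 CPM in WT, and Mcm2 at 8.90, 4.59 and 5.20 CPM against 3.86, 2.14 and 2.97 CPM. In both genes every KO library was above every WT library, and KO 1 was the highest. Their log2 fold changes of 1.36 ± 0.476 and 1.06 ± 0.334 did not pass over 6 libraries (adjusted p = 0.136 and 0.111), and within the 4 libraries both rose, by 0.75 and 0.93 (adjusted p = 0.0327 and 0.0315). Mcm5 was at 8.54, 2.41 and 4.71 CPM in KO and 2.58, 2.04 and 2.29 CPM in WT, with KO 2 within the WT range (adjusted p = 0.151). Mcm3, Mcm4 and Mcm7 had log2 fold changes of 0.53, 0.34 and 0.40, with adjusted p of 0.383, 0.561 and 0.188. Cdt1, which loads the helicase, and Tyms, which makes thymidylate, had values of 0.48 and 0.33 (adjusted p = 0.407 and 0.363).

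**Figure D3:**
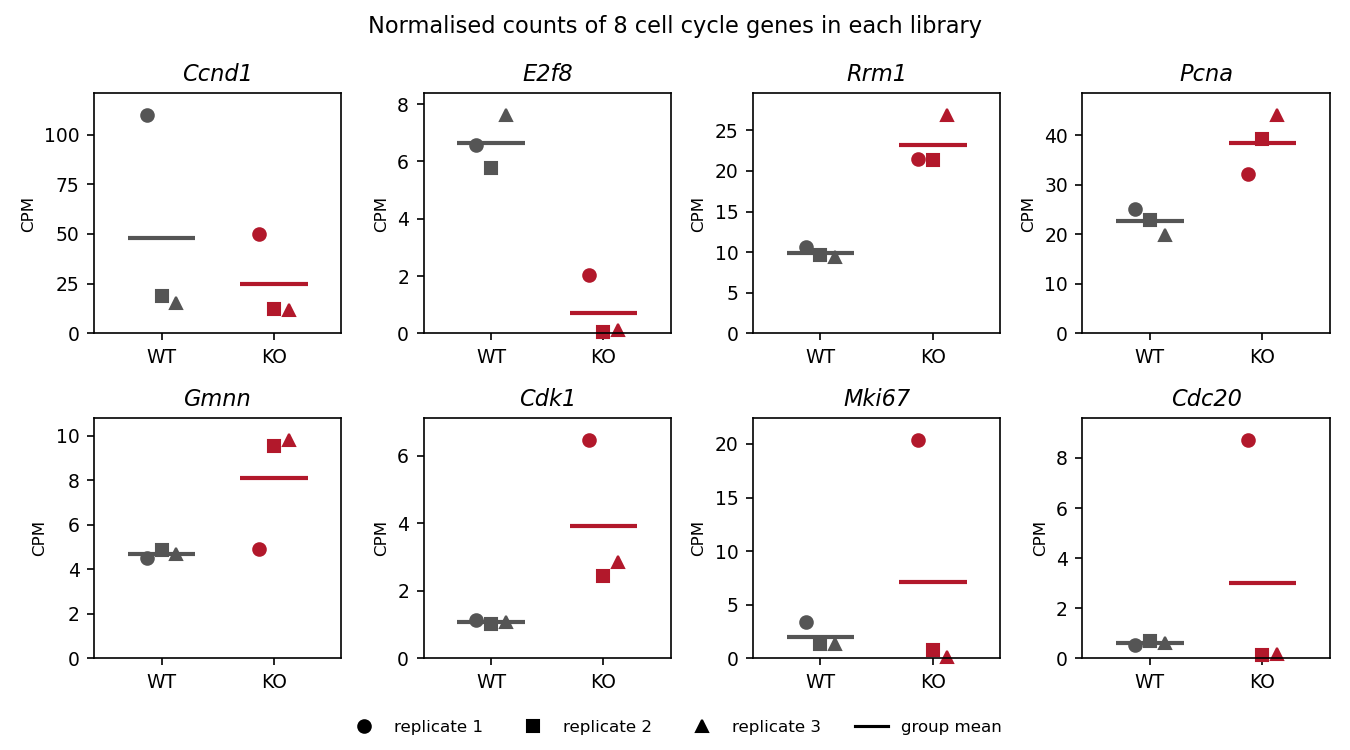
CPM of 8 genes in each library (points, shaped by replicate number) with the group mean (bar), for WT and KO. Rrm1 and Pcna have all KO libraries above all WT libraries, Mki67 and Cdc20 are high only in KO 1, and Ccnd1 is highest in WT 1 and KO 1.

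The 21 members for G2/M, the spindle and mitotic chromatin were far higher in KO 1 than in any other liver. KO 1 exceeded every other library by more than 2 times in all 21 of these genes and, among the other 17 members, in Mcm6. This pattern was chosen after the values were seen, and it held for 0.997% of all genes tested. The ratio of KO 1 to WT 1 ran from 2.55 to 17.0, with a median of 6.08. KO 2 and KO 3 were not high: both lay below all 3 WT libraries in 12 of the 21. Among the 19 tested the share was 52.6%, against 29.4% of all genes. The summed level of the 11 spindle, checkpoint and cytokinesis members was 58.3, 4.74 and 6.05 CPM in KO 1, 2 and 3 and 10.2, 7.42 and 7.18 CPM in WT 1, 2 and 3. All 19 tested had positive fold changes over 6 libraries and none passed the threshold. At an unadjusted p under 0.05 there was 1, where 26.25% of all genes were. Within the 4 libraries 14 of the 18 tested had negative fold changes. There 3 of the 18 fell (16.7%, against 16.1% of all genes) and 1 rose (against 17.2% of all genes), so the calls themselves were no more frequent than over all genes.

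Mki67, which coats mitotic chromosomes and is the usual marker of cycling cells, was at 20.4, 0.738 and 0.149 CPM in KO and at 3.35, 1.33 and 1.35 CPM in WT, or 1187, 41 and 7 counts against 170, 69 and 63. KO 1 was the highest and KO 3 the lowest of the 6. Its log2 fold change was 1.82 ± 1.47 (adjusted p = 0.462) over 6 libraries and -1.56 ± 0.636 (adjusted p = 0.113) within the 4. Top2a, the topoisomerase that untangles sister chromatids, was at 10.4, 0.558 and 0.382 CPM against 2.05, 1.20 and 1.50 CPM. Top2a fell within the 4 libraries by 1.51 (SE 0.338, adjusted p = 0.0228), and over 6 its value was 1.26 ± 1.16 (adjusted p = 0.524).

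Cdk1, the kinase that drives entry into mitosis, was an exception, with 6.47, 2.45 and 2.84 CPM in KO and 1.12, 1.02 and 1.07 CPM in WT. All KO libraries were above all WT libraries, and KO 1 was again the highest. The means were 3.92 ± 2.21 and 1.07 ± 0.0509 CPM (SD, n = 3 each), with a log2 fold change of 1.87 ± 0.410 that missed the threshold (adjusted p = 0.0578). Cdk1 rose within the 4 libraries by 1.33 (adjusted p = 0.0122). Its partner Ccnb1, cyclin B1, did not follow: it was at 5.26, 0.198 and 0.021 CPM in KO and at 0.375, 0.347 and 0.385 CPM in WT. KO 2 and KO 3 thus lay below a narrow WT range and KO 1 above it (log2 fold change 2.31 ± 1.48, adjusted p = 0.359). The cyclins Ccna2 and Ccnb2 had the same order, with 6.30 and 4.12 CPM in KO 1 and at most 0.558 and 0.340 CPM in KO 2 and KO 3.

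The mitotic kinases Aurka and Aurkb were at 3.26 and 1.77 CPM in KO 1 and at most 0.849 and 0.296 CPM in every other library. Foxm1, the factor that turns on G2/M genes, was at 3.19, 0.414 and 0.191 CPM in KO and at 0.828, 0.366 and 0.385 CPM in WT (log2 fold change 1.27, adjusted p = 0.452). Of the 2 genes too low to test, Plk1, a kinase of mitotic entry, had 150, 7 and 1 counts in KO and 21, 10 and 7 in WT. Bub1, a checkpoint kinase, had 56, 1 and 0 counts against 11, 3 and 6.

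Cdc20, the activator of the anaphase-promoting complex, was at 8.71, 0.126 and 0.149 CPM in KO and at 0.513, 0.694 and 0.599 CPM in WT. KO 1 was 17.0 times WT 1, while KO 2 and KO 3 were below all WT libraries. The log2 fold change of Cdc20 over 6 libraries was 2.32 ± 1.48 (adjusted p = 0.359). Within the 4 libraries Cdc20 fell by 2.23 (SE 0.396, adjusted p = 0.0116). Cenpf, a kinetochore protein, had 400, 4 and 0 counts in KO and 51, 17 and 21 in WT. Its log2 fold change was 1.96 ± 1.71 over 6 libraries (adjusted p = 0.499) and -3.25 ± 0.848 within the 4 (adjusted p = 0.0350). The value within the 4 libraries depends on counts near 0 and is not a bound. Tpx2, a spindle assembly factor, was at 5.88, 0.324 and 0.212 CPM in KO and at 0.631, 0.366 and 0.214 CPM in WT. Only KO 1 was above the WT range, and the log2 fold change of 2.40 ± 1.26, the highest fitted value among the members, did not pass (adjusted p = 0.273). Kif20a, a motor of cytokinesis, was at 8.20 CPM in KO 1 and at most 0.891 CPM elsewhere, and Cenpe, a kinetochore motor, at 4.55 CPM in KO 1 and at most 0.591 CPM elsewhere. The smallest ratio of KO 1 to WT 1 among the 21 was that of Bub1b, a checkpoint protein, at 2.55.

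The knockout effect in the pair with Xist counts was compared with that in the other 4 libraries by an interaction term. The interaction passed the threshold for 6 of the 36 members (16.7%), against 2.90% of all genes, and all 6 were positive, where 1.71% of all genes were called positive and 1.19% negative. They were E2f8, Top2a, Cdc20, Cenpe, Cenpf and Kif20a, and 5 of the 6 were spindle or chromatin members. At an unadjusted p under 0.05 there were 24 of 36 (66.7%), against 20.9% of all genes. Of the 12 replication members none passed the adjusted threshold, and 3 had an unadjusted p under 0.05: Mcm6 with a positive interaction (1.19) and Gmnn and Pcna with negative ones (-0.90 and -0.60). The estimate of spread comes only from the 4 libraries with Y-linked counts, since the pair has 1 mouse per genotype, so the term compares these 2 mice with the others and is no replicated test of Xist state.

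**Figure D4:**
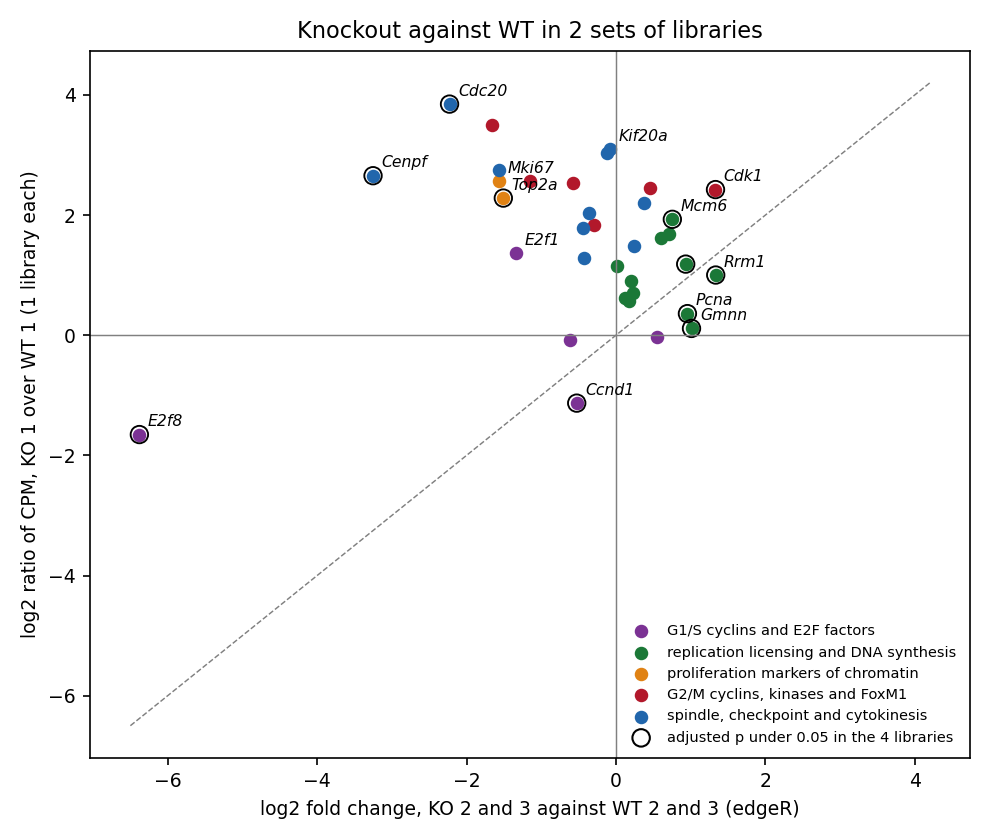
Each tested gene by its edgeR log2 fold change in the 4 libraries with Y-linked counts (x axis) and the log2 ratio of CPM in KO 1 over WT 1 (y axis), coloured by role. Circles mark adjusted p under 0.05 in the 4 libraries, and the dashed line marks equal values. Most G2/M, spindle and chromatin genes lie left of 0 and above 0, while the replication genes lie right of 0 and above 0.

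Levels between genes were compared per kilobase of annotated exon (CPM per kilobase). On that scale the WT mean was highest for Ccnd1 (10.2, from 23.3, 3.98 and 3.26 in WT 1, 2 and 3) and Pcna (9.42), followed by Gmnn (3.20) and Mcm7 (2.88). The order of Ccnd1 and Pcna rests on WT 1 and does not hold beyond that spread. Bub1 (0.0309), Cenpf (0.0385) and Cenpe (0.0520) were the lowest.

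Other genes of the same pathway were read from separate lists. Of the 22 tested of 25 further mitotic genes, 20 had a positive fold change and 1 passed the threshold, with a lower level in KO. This was Pttg1, securin, which holds back separase until anaphase, at 3.38, 2.20 and 2.12 CPM in KO and 17.4, 18.5 and 16.7 CPM in WT. It was lower in every KO library, KO 1 included, with a log2 fold change of -2.77 ± 0.216 (adjusted p = 0.00465), and it lost its call only without WT 2 (0.0525). It also fell within the 4 libraries, by 3.03 (adjusted p = 0.000344). In 2 of the 22, Ttk and Cks2, every KO library was above every WT library (9.09%, against 16.9% of all genes). Their log2 fold changes of 3.43 ± 0.796 and 0.77 ± 0.167 did not pass (adjusted p = 0.0640 and 0.0566). Within the 4 libraries both rose (adjusted p = 0.0408 and 0.0100). Ttk held only 7, 7 and 4 counts in WT 1, 2 and 3. KO 1 was the highest library in 17 of the further mitotic genes tested, as it was for the mitotic members. Of the 18 further mitotic genes tested within the 4 libraries, 13 had negative fold changes, with a median of -0.94. There 3 fell and 3 rose (16.7% each), near the 16.1% and 17.2% of all genes called lower and higher. None of the 16 tested of 18 further replication genes passed the threshold, and 13 of them had a positive fold change. Gins1, a subunit of the helicase complex, came nearest among the further replication genes named. It was at 3.41, 3.93 and 4.84 CPM in KO and 2.01, 1.72 and 2.20 CPM in WT (log2 fold change 1.04 ± 0.226, adjusted p = 0.0568). Gins2 and Chek1, a further helicase subunit and a kinase of the replication checkpoint, had log2 fold changes of 1.56 and 1.31 (adjusted p = 0.167 and 0.182).

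None of the 5 D-type cyclins and G1 kinases, none of the 5 tested of 7 inhibitors of these kinases and none of the 15 Rb and E2F family genes passed the threshold. Cdkn1a, an inhibitor induced by p53, was at 12.0, 81.9 and 10.2 CPM in KO and at 5.20, 3.30 and 5.54 CPM in WT. All KO libraries were higher, KO 2 by far (log2 fold change 2.89 ± 0.846, adjusted p = 0.0965). Without KO 2 the log2 fold change was 1.25 (adjusted p = 0.104), and without KO 1 it was 3.30 and passed (0.0271). The value within the 4 libraries was 3.38 ± 0.965 (adjusted p = 0.0451). Ccnd3, another D-type cyclin, was at 41.9, 32.8 and 44.9 CPM against 27.3, 26.1 and 28.1 CPM, again without overlap and short of the threshold (adjusted p = 0.0769). The kinases Cdk4 and Cdk6 and the cyclin Ccnd2 had log2 fold changes of 0.22, 0.33 and -0.24 (adjusted p = 0.220, 0.318 and 0.581), and the inhibitors Cdkn2c and Cdkn2d of 0.30 and -0.41 (0.508 and 0.552). Rb1, the protein that restrains E2F factors, was at 6.14, 7.004 and 7.004 CPM in KO and at 7.77, 10.3 and 10.9 CPM in WT, with no overlap (log2 fold change -0.53 ± 0.174, adjusted p = 0.121), and it fell by 0.61 within the 4 libraries (adjusted p = 0.0178). Tfdp2, a partner of E2F factors, E2f6 and Mybl2, which encodes B-Myb, had values of 0.47, 0.29 and 0.65 (adjusted p = 0.228, 0.323 and 0.347).

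Markers of other cell types were read beside these results, since any dividing cell of the liver could carry mitotic RNA. The summed level of 6 macrophage markers was 154, 81.9 and 64.1 CPM in KO 1, 2 and 3 and 97.7 to 131 CPM in WT. KO 1 was highest for 4 of the 6, and Vsig4, a marker of resident liver macrophages, had an interaction of 2.20 (adjusted p = 0.0306), as Adgre1 had of 1.79 (adjusted p = 0.0452). The list did not move as one: of the other 4, 2 had positive and 2 negative interactions, and Marco, another macrophage marker, was at 7.46, 12.2 and 9.15 CPM in KO 1, 2 and 3 (interaction -1.14, adjusted p = 0.152). B and plasma cell markers summed to 0.468 to 3.06 CPM in KO and 2.63 to 3.51 CPM in WT, T and NK cell markers to 1.06 to 1.61 and 1.39 to 2.86 CPM, and neutrophil markers to 0.594 to 0.792 and 0.256 to 0.444 CPM, with Ly6g at 0 in all libraries. The erythroid list summed to 13.5 to 65.8 CPM in KO and 12.5 to 135 CPM in WT, nearly all of it Alas2, while Rhag was at 0 in all libraries. Endothelial markers summed to 67.2 to 112 CPM in KO and 135 to 185 CPM in WT, stellate cell markers to 94.7 to 201 and 158 to 342 CPM, and bile duct markers to 24.8 to 74.2 and 39.5 to 72.7 CPM. Hepatocyte markers summed to 19988 to 64370 CPM in KO and 76626 to 114048 CPM in WT. Over these lists 1 gene passed the threshold between groups, the hepatocyte enzyme gene Tat, which was higher in KO. More markers passed within the 4 libraries: 5 of 6 endothelial markers fell, as did 3 of 6 stellate, 3 of 5 B and plasma cell, 3 of 6 macrophage and 3 of 6 hepatocyte markers. The lists of bile duct and erythroid markers had 1 that fell each, and 1 macrophage, 1 hepatocyte and 1 neutrophil marker rose. Of all genes, 16.1% were called lower and 17.2% higher within the 4 libraries. The shares that rose in the macrophage and hepatocyte lists (16.7% each) were near the latter. Alas2, an enzyme of heme synthesis, had an interaction of 5.81 (adjusted p = 0.00508). It was at 62.5, 11.1 and 17.0 CPM in KO 1, 2 and 3 and at 10.1, 134 and 121 CPM in WT 1, 2 and 3. WT 1 was thus its lowest library, and KO 1 lay below WT 2 and WT 3. The part of these cell types in the levels of the cell cycle genes was not tested.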

How the data were processed

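The authors deposited 1 table of RSEM expected counts per gene for 6 libraries, which are estimated counts that need not be whole (4.93% to 5.47% of values were not). Per the submitters' processing notes, bcl2fastq 2.17, cutadapt 1.18, STAR 2.7.0f and RSEM 1.3.1 are named and the build named is mm9, yet all 55450 versioned gene identifiers match GENCODE M21 on GRCm38, from which positions and exon lengths were taken. Strand use is not given in the sources used here. The deposited counts were rounded, genes were filtered with filterByExpr, and KO was compared with WT by edgeR 4.0.16's quasi-likelihood test (TMM scaling, group as the only term, R 4.3.3), with Benjamini-Hochberg adjustment over all genes tested and a threshold of 0.05. The SE of a log2 fold change is its size over the square root of the F statistic. Groups and replicate numbers came from the titles. With 1 library per mouse, p-values measure the spread between mice. Library totals were 47659122 to 56147667 counts, and a count of 3 was taken as the floor.

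The members, lists and rules for named genes were chosen with earlier results of these data known. Named in full were members past the threshold or with an adjusted p under 0.1, the 3 with the largest and the 3 with the smallest log2 fold change, and 8 chosen by role (Mki67, Top2a, Cdk1, Ccnb1, Ccnd1, Ccne1, Mcm2 and Pcna). In the other lists of the pathway, genes past the threshold were named, otherwise up to 3 with the smallest adjusted p, with Cdkn1a, Ccnd2 and Mybl2. Further genes were chosen after their values were seen. Alternatives tried were other scalings, no filter, DESeq2 1.42.0, limma 3.58.1 (voom), a block on replicate number, Xist state as a term, leaving out each library, and the 4 libraries with Y-linked counts alone. Fits were tested on simulated data with a smaller spread between mice than estimated here. The simulation therefore does not show how the fits perform at the spread of these data. Motifs were searched on both strands of RefSeq promoter windows (GRCm38.p6). Values of some single marker genes are not reported here.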

Additional observations from a re-analysis of the deposited data

Results flagged for a closer look

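The interaction term of an edgeR quasi-likelihood fit, which sets the KO effect in the pair with Xist counts (KO 1 and WT 1) against that in the 4 libraries with Y-linked counts, passed the threshold for 6 of 36 members, 4 of 22 further mitotic genes and 1 of 16 further replication genes, against 2.90% of all genes. The spread comes only from the 4 libraries, and the high values of KO 1 were known when the term was chosen. Every difference was positive, that is, the KO effect was higher in the pair. Among the members they were, on the log2 scale, 4.68 for E2f8 (adjusted p = 0.0181), 3.84 for Top2a (0.0202), 6.31 for Cdc20 (0.00706), 4.50 for Cenpe (0.0293), 6.01 for Cenpf (0.0445) and 3.31 for Kif20a (0.0487). E2f8 differs from the other 5 in that it was lower in KO in both sets and less so in the pair. In the further lists of the pathway the differences were 4.80 for Nuf2 (0.0367), a kinetochore protein, 3.41 for Nek2 (0.0191), a centrosome kinase, 5.96 for Hmmr (0.0207), a spindle protein, and 5.22 for Pbk (0.04998), a mitotic kinase. Mcm10, a replication initiation factor, had a difference of 2.84 (0.0234) from another pattern, with 28.0, 12.0 and 18.7 CPM in KO and 15.9, 62.1 and 62.0 CPM in WT, so WT 1 was among the low libraries. The last 5 genes were chosen after their values were seen. The pair has 1 mouse per genotype, so Xist state and the single mice cannot be told apart.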

How the results depend on the processing

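The number of members called was 1 over 6 libraries. It was 2 with library size alone, 3 with no filter, 5 with DESeq2, 0 with the replicate block, 5 with Xist state as a term and 11 within the 4 libraries with Y-linked counts, and 0 to 9 over the leave-outs (0 without KO 3, WT 2 or WT 3; 9 without KO 1). Of all genes, 490 were called, against 771 with no filter, 2290 with DESeq2, 105 with the replicate block, 1504 with Xist state as a term, 4847 within the 4 libraries and 6 to 4473 over the leave-outs. With library size alone the split was 380 higher and 131 lower, against 313 and 177. The replicate block gave Rrm1 an adjusted p of 0.0512. The labels tie same-numbered samples only by number, but KO 1 and WT 1 also shared high Xist counts, so the block takes up that difference too. Correlations of deviations between same-numbered samples were 0.178, 0.0443 and 0.0679. Not every sample correlated best with its own number.

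The median log2 fold change of the members was 1.14, was 0.39 with voom, 0.39 with the replicate block and 0.43 with Xist state as a term, turned to -0.0741 within the 4 libraries, and ran from -0.31 (without KO 1) to 1.56 over the leave-outs. Within the 4 libraries, 11 members were called and 2 to 18 over the leave-outs (2 without WT 3, 3 without WT 2, 18 without KO 2); these alternatives were chosen after seeing the data. Each of these leave-outs within the 4 libraries leaves 1 mouse in a group. The number of all genes called also rose without KO 2 and fell without WT 2 or WT 3. The spread of these counts therefore shows nothing particular to the members. The interaction gave 6 members, beside 2.90% of all genes, and 20 members with no filter and 14 with DESeq2. The shares of all genes in these last 2 settings were not counted.

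Fold changes that turned negative were, with voom, Mki67 -0.32, Top2a -0.15, Ccnb1 -0.085, Aurkb -0.12 and Cenpf -1.43; with the replicate block, Mki67 -0.19, Top2a -0.20, Cdc20 -0.12 and Cenpf -0.50; and with Xist state as a term, Mki67 -0.0483, Top2a -0.17, Cdc20 -0.00418 and Cenpf -0.34. Within the 4 libraries they were Mki67 -1.56, Top2a -1.51, Ccna2 -0.58, Ccnb1 -1.66, Ccnb2 -1.16, Foxm1 -0.29, Bub1b -0.43, Cdc20 -2.23, Cenpe -1.57, Cenpf -3.25, Kif11 -0.44, Kif20a -0.0741, Tpx2 -0.12 and Ect2 -0.36. The cause was not tested.

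Over the leave-outs, the fold changes that changed sign ran as follows: Ccnd1 -2.02 to 0.53, E2f1 -1.08 to 0.22, Mki67 -2.15 to 2.40, Top2a -1.74 to 1.78, Ccna2 -0.82 to 2.14, Ccnb1 -1.68 to 2.88, Ccnb2 -1.24 to 2.05, Aurkb -1.69 to 1.88, Foxm1 -0.79 to 1.77, Bub1b -0.79 to 1.14, Cdc20 -2.12 to 2.90, Cenpe -1.82 to 2.39, Cenpf -3.88 to 2.57, Kif11 -0.52 to 1.29, Kif20a -0.14 to 2.53, Tpx2 -0.59 to 2.93, Ect2 -0.32 to 1.34 and Anln -0.29 to 1.62. The sign changed without WT 1 for Ccnd1, without KO 2 for E2f1 and without KO 1 for the others. Counts of 0 to 11 in KO 2 and KO 3 limit the values of Plk1, Bub1, Cenpf, Cenpe, Cdc20, Aurkb, Ccnb1 and E2f8.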
